A study of Mus musculus with 2 samples.

Results

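The cytosolic ribosomal protein genes are described here in single leukocytes from mouse tumours, with Rpl29 as the member that stood apart. Members were the genes whose symbol begins with Rpl or Rps followed by a number (with at most 1 of the letters a, l, x or y after it), or with Rplp and a number, together with Rpsa. They had to hold at least 100 unique molecular identifiers (UMIs, each counted as 1 captured RNA molecule) over both libraries. The pattern matched 80 symbols, and 79 of the 31053 genes in the files were members, 48 of the large and 31 of the small ribosomal subunit. Rpl10l, with 0 UMIs, was left out. Rpl3l was the least counted member, with 355 UMIs, followed by Rpl39l with 724.

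The study asked what YTHDF2, a protein that binds m6A-modified RNA and promotes its decay, does in tumour-associated macrophages. The study holds 1 library from tumour-infiltrating CD45+ cells of C57BL/6 mice labelled WT and 1 library from those of C57BL/6 mice labelled Ythdf2 cKO, a conditional knockout. The tumour, the age of the mice, the number of mice pooled and the promoter that drives the deletion are not given in the labels used here. RNA was captured in droplets from its 5′ end, and with 1 library per genotype no difference below has a replicate check or a test.

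Ribosomal proteins assemble with ribosomal RNA into the subunits that translate messenger RNA, nearly every one of them in a single copy per ribosome. Their messenger RNAs are among the most abundant in a cell and usually rise and fall together. Most begin with a tract of pyrimidines through which growth signals control their translation. Resting lymphocytes are known for a large share of such messages, and activated cells for a larger share of other products.

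The WT-labelled library held 14404 barcodes and 128952491 UMIs, and the cKO-labelled library held 11398 barcodes and 121321782 UMIs. Filters kept 12179 and 9865 cells with median depths of 5592 and 8480 UMIs, and 43 barcodes occurred in both libraries. Marker genes placed 5804 (47.7%) and 6518 (66.1%) of the kept cells in gates named after cell types, and cells with markers of more than 1 lineage stayed outside. Comparisons used the 9 gates that had 50 cells or more on both sides. From the WT-labelled library and then that labelled cKO, they held 1091 and 480 macrophages, 1404 and 1943 monocytes, 113 and 110 conventional dendritic cells, and 267 and 90 plasmacytoid dendritic cells. The lymphoid gates held 700 and 1749 CD8 T cells, 245 and 162 CD4 T cells without Foxp3, 285 and 203 regulatory T cells, 1233 and 1554 NK cells, and 329 and 193 B cells. Ptprc, the gene for CD45, was detected in 70.2% of B cells of the WT-labelled library and in 89.6% to 100% of the cells of the other gate and library combinations compared.

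The targeted gene went against its label. Ythdf2 was at 76.5 CPM (UMI counts scaled to the same total in every gate) in macrophages of the WT-labelled library and at 450 CPM in those of the cKO-labelled library, and at 52.6 and 377 CPM in monocytes. In the lymphoid gates it was at 48.1 to 56.1 CPM and 54.5 to 65.9 CPM. Reads from the 5′ end may lie outside the deleted part of the gene, so this level checks neither the deletion nor the labels, and every direction below is that of the cKO-labelled library against the WT-labelled library. Brackets give exact 95% intervals, Poisson for a CPM, binomial for a share or a ratio, which cover counting error only.

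Rpl29 encodes a small basic protein of the large subunit that has also been described as a heparin-binding protein. It lies on chromosome 9 at 106429454 to 106431568 on the plus strand (GRCm38; ENSMUSG00000048758), in 4 exons with 483 coding bases. Annotated pseudogenes at no fewer than 95% identity over at least 80% of its coding sequence numbered 24, spread over 14 chromosomes. One of the closest, Gm13841 (chr5:115801677-115802159, minus strand), differs from the coding sequence by the substitutions C72A, C300T and T423C, counted from the first coding base with the base of Rpl29 written first. Coding bases 62 to 361 of both are shown, in GENCODE vM21 on GRCm38, because reads from this stretch can be told apart only at the 2 bases in capitals:
Rpl29: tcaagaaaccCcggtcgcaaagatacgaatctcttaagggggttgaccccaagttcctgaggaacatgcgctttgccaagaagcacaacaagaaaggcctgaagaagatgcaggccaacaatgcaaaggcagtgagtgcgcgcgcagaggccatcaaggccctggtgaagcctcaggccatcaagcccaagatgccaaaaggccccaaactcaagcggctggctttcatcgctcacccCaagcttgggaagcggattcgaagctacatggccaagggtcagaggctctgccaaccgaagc
Gm13841: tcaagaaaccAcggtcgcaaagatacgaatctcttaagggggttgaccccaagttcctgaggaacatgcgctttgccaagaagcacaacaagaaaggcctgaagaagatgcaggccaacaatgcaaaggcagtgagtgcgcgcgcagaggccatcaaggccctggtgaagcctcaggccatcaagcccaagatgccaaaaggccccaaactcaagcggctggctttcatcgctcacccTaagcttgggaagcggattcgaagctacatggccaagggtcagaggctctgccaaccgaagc

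Rpl29 was far lower in the cKO-labelled library in each of the 9 gates, a difference known before these values were computed and given as a description. In macrophages it fell from 1147 CPM [1130, 1165] in the WT-labelled library (16110 UMIs) to 111 CPM [104, 119] in the cKO-labelled library (862 UMIs), 10.3-fold lower [9.61, 11.04]. Monocytes held 939 CPM [921, 957] and 120 CPM [116, 124], 7.83-fold lower [7.51, 8.16]. The intervals of both libraries were far apart in these and in the other gates. Conventional dendritic cells were at 1134 and 125 CPM, 9.04-fold lower [7.80, 10.5], and plasmacytoid dendritic cells at 1017 and 146 CPM, 6.96-fold lower [5.84, 8.36].

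Rpl29 was also lower by several-fold in each lymphoid gate, and the size of the difference was not compared between gates by a test. CD8 T cells held 1515 CPM [1478, 1553] and 170 CPM [163, 176], 8.93-fold lower [8.53, 9.35]. CD4 T cells held 1289 and 136 CPM, 9.50-fold lower [7.99, 11.4]. Regulatory T cells, the gate with the smallest fold difference, held 1136 and 168 CPM, 6.76-fold lower [5.97, 7.67]. The other lymphoid gates lay in between. NK cells were at 1192 and 142 CPM, 8.37-fold lower [7.89, 8.89], and B cells at 1057 and 129 CPM, 8.20-fold lower [6.64, 10.2]. Neutrophils, too few to compare with 137 and 34 cells, held 236 CPM in the WT-labelled library and 10.4 CPM, a single UMI, in the cKO-labelled library. On the log2 scale, with 1 CPM added to each value, the ratio ran from −3.35 in macrophages to −2.75 in regulatory T cells with a median of −3.06 over the 9 gates.

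**Figure D1:**
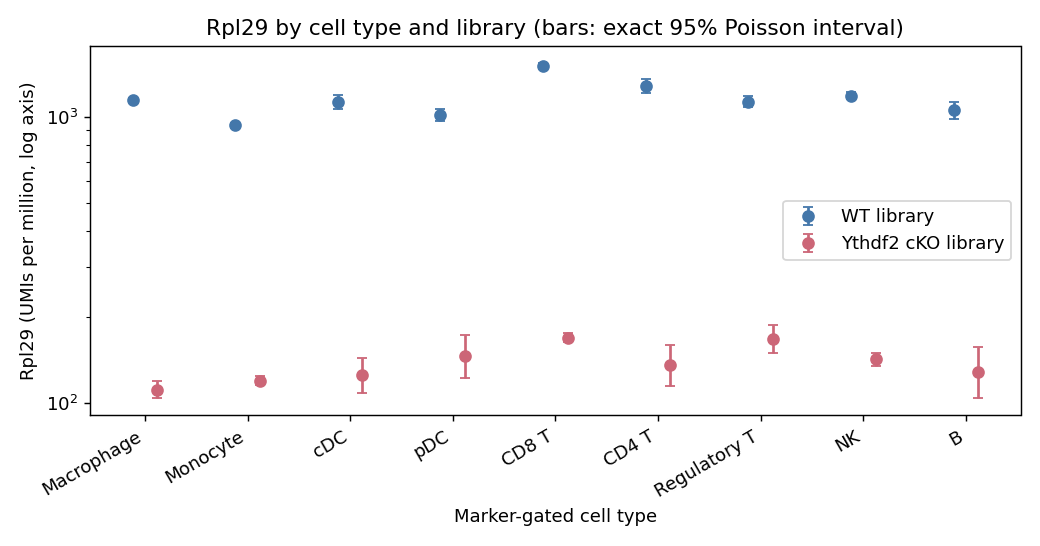
Rpl29 in CPM (log axis) by marker gate, with blue points for the WT-labelled library, red points for the cKO-labelled library and bars for exact 95% Poisson intervals. The blue points lie between 939 and 1515 and the red points between 111 and 170, so no gate of one library reaches any gate of the other.

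Between gates of a library Rpl29 varied little by comparison. In the WT-labelled library, monocytes were lowest (939 CPM) and CD8 T cells highest (1515 CPM), each with an interval clear of the next gate. In between, the intervals of neighbours in the order plasmacytoid dendritic, B, conventional dendritic, regulatory T, macrophage, NK and CD4 T cells overlapped from each to the next. In the cKO-labelled library, macrophages (111 CPM) were lowest and CD8 T cells (170 CPM) highest, and every neighbour in the order macrophage, monocyte, conventional dendritic, B, CD4 T, NK, plasmacytoid dendritic, regulatory T and CD8 T overlapped the next. Monocytes were thus at or near the bottom and CD8 T cells at the top in both libraries.

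Rpl29 was also counted per cell. After each cell was thinned to 1 number of UMIs per gate, Rpl29 was found in 100% of macrophages [99.6, 100] of the WT-labelled library and in 45.7% [41.0, 50.6] of those of the cKO-labelled library, at 6410 UMIs per cell with 218 and 45 shallower cells left out. Without thinning it was found in 98.1% and 71.9%, where the median cell had 11293 and 14317 UMIs. CD8 T cells thinned to 3499 UMIs had it in 99.3% and 44.4% of cells (unthinned 99.1% and 68.5%, at median depths of 4816 and 7155 UMIs), with 139 and 72 cells left out. Rpl29 UMIs per thinned cell in the cKO-labelled library had a variance of 1.00 to 1.2 times their mean over the 9 gates. Random capture at 1 level in all CD8 T cells would give 43.8% of cells with a UMI, beside the 44.4% found. In the other 8 gates the share found was below that of random capture, as in macrophages (45.7% beside 48.4%) and conventional dendritic cells (55.2% beside 58.4%). No cell type here should lack Rpl29, so no background share can be set beside these values.

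Few genes of any kind moved so far in every gate. Of 5650 genes with at least 10 CPM in either library in each of the 9 gates, 7 were at least 2-fold lower in all 9 and 0 were at least 2-fold higher. The 7 were Rpl29, the macrophage genes C1qa, C1qc, Pf4 and Ccl8, and the pigment cell genes Pmel and Dct. Pf4 was further down than Rpl29 in all 9 gates, with log2 ratios from −4.56 to −3.39, and Pmel and Dct were in 4 and 3 gates. Among genes of at least 50 CPM in each gate, which leaves Pf4 out, 0 besides Rpl29 reached its log2 ratio in every gate. In the WT-labelled library the highest gate of Rpl29 was 1.61 times its lowest (939 to 1515 CPM). This ratio was 55.5 for Pf4 (33.3 to 1848 CPM), 22.9 for Ccl8 (24.8 to 568 CPM) and 83.4 for C1qa (33.3 to 2782 CPM). The pigment cell genes were low in every gate and differed less between gates, by 2.59 times for Pmel (12.7 to 32.9 CPM) and 4.59 times for Dct (12.8 to 58.9 CPM).

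Against this, the other members differed little between the libraries. A member was counted as called at 1.5-fold or more in either direction, among genes of at least 10 CPM in either library, and 77 of the 79 members reached that level in each gate, without Rpl3l and Rpl39l. In monocytes 1 of 77 members was called, beside 5.73% of all genes tested, and in NK cells 1 of 77, beside 4.4%. Conventional and plasmacytoid dendritic cells also had 1 call of 77 each, beside 21% and 14.2% of all genes. So did CD4 T cells (20% of all genes), regulatory T cells (11.8%) and B cells (23.4%). In these 7 gates the single called member was Rpl29, and its share of the members (1.30%) was below the share of all genes called. Here and below, such shares are not matched for level. Most members lay far above 10 CPM, and counting error alone moves the ratio of a gene near 10 CPM more, most in gates with few cells. The contrast therefore does not show that members were steadier than other genes of their level.

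Macrophages and CD8 T cells each had 5 lower and 0 higher members of 77 (6.49%), beside 29.5% and 10.6% of all genes called in either direction. By direction, all genes had 1373 lower and 918 higher of 7773 in macrophages, and 380 lower and 450 higher of 7823 in CD8 T cells. The member count in CD8 T cells rose to 15 with equal weight per cell, 20 with thinned cells and 30 without members and mitochondrial genes in the denominator. That in macrophages became 2 with median-of-ratios size factors and 1 as a share of member UMIs. In macrophages the called members included Rpl29, Rpl12, Rplp1 and Rps27l. Rpl12, which helps to form the stalk base of the large subunit, was at 2483 CPM in the WT-labelled library and 1475 CPM in the cKO-labelled library, 1.68-fold lower [1.65, 1.72]. Rplp1, an acidic stalk protein, was at 4043 and 2572 CPM. In CD8 T cells the called members were Rpl29, Rpl12, Rplp1, Rps28 and Rps29. Rps29, a small subunit protein with a zinc-binding site, was at 6331 and 3946 CPM, 1.60-fold lower [1.58, 1.63]. Rps28, also of the small subunit, was at 4000 and 2566 CPM.

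The median log2 ratio of the members was −0.40 in CD8 T cells, where all genes tested had a median of 0.07, and −0.23 in macrophages, where all genes had −0.12. In the other 7 gates the members' medians ran from −0.09 in regulatory T cells to 0.04 in conventional dendritic cells, and those of all genes from −0.09 to −0.01. Median-of-ratios size factors, whose shift was −0.14 in macrophages and −0.13 in monocytes, brought the members' median to −0.09 in macrophages and 0.15 in monocytes and left it at −0.40 in CD8 T cells. Near 0 the sign depended on the scaling: with those factors B, CD4 T and NK cells had medians of 0.01, 0.05 and 0.01 in place of −0.04, −0.03 and −0.08.

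**Figure D2:**
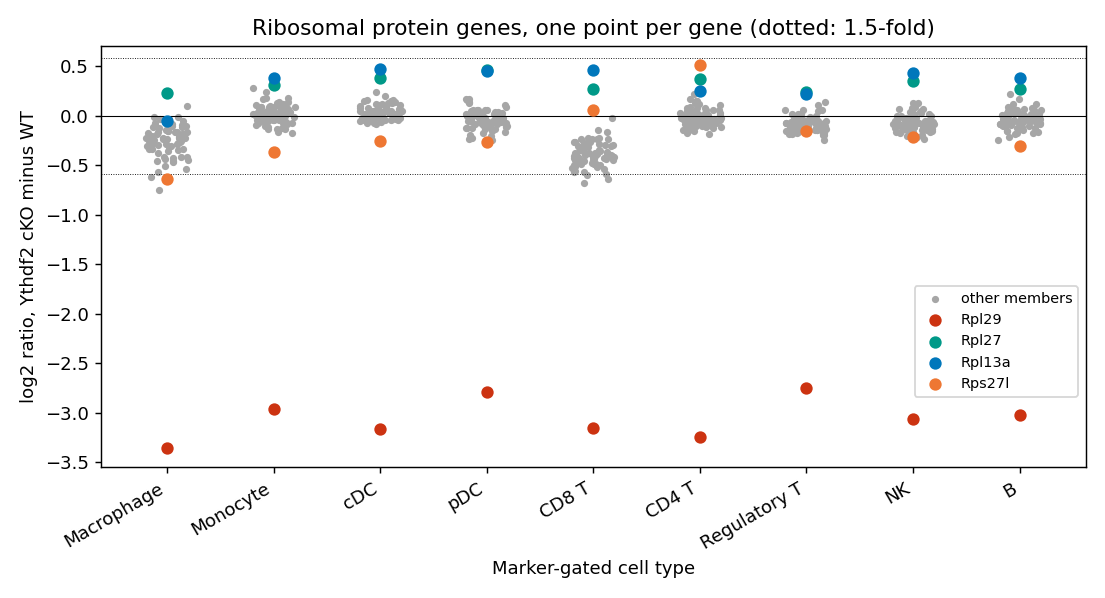
Log2 ratio (cKO-labelled library minus WT-labelled library, 1 CPM added) of each member by marker gate, 1 point per gene, with 4 members coloured and dotted lines at 1.5-fold. Grey points cluster near their gate's median, lower in macrophages (−0.23) and CD8 T cells (−0.40), and Rpl29 lies near −3 in all 9 gates.

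The summed level of the members followed cell type more than library. Members took 30.4% of the UMIs of CD8 T cells in the WT-labelled library and 22.9% in the cKO-labelled library. B cells held 25.04% and 24.2%, CD4 T cells 24.6% and 24.0%, NK cells 23.0% and 21.9%, and regulatory T cells 20.8% and 19.4%. The lymphoid gates were thus at or above the level of conventional dendritic cells (20.1% and 20.5%), apart from regulatory T cells of the cKO-labelled library. Plasmacytoid dendritic cells held 19.5% and 18.9%, macrophages 16.2% and 13.6%, and monocytes 15.6% and 15.7%. Neutrophils held 4.91% and 3.46%, the lowest of all gates.

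Only CD8 T cells and macrophages differed in this share by more than 2 percentage points. The median CD8 T cell held 30.4% (quartiles 24.6% and 36.8%) in the WT-labelled library and 20.4% (17.4% and 24.7%) in the cKO-labelled library, so the ranges between the quartiles barely overlapped. Cells with a UMI of Gzmb, the gene of the cytotoxic protease granzyme B, made up 22.1% and 79.2% of the 2 CD8 T gates. Cells were not thinned for this split, at median depths of 4816 and 7155 UMIs, and a deeper cell more readily shows a UMI. The parts with and without Gzmb may therefore not hold like cells in the 2 libraries. Within cells with Gzmb, members took 25.6% and 21.4% of UMIs, and within cells without it 32.5% and 28.95%. The log2 ratio of the shares was −0.41 in the gate as a whole, −0.25 with Gzmb and −0.17 without. Cells with and without Gzmb thus differed between the libraries in the same direction as the whole gate, by a smaller amount. This split was chosen after the values were seen, and the part that the makeup of the gate plays beyond them was not tested.

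The macrophage gates also differed in their makeup. Summed macrophage markers (C1qa, C1qb, C1qc, Apoe, Adgre1 and Mrc1, 6 of 6 detected) were at 12966 and 4968 CPM, and summed monocyte markers (Ly6c2, Ccr2, Plac8, Vcan and Fn1, 5 of 5 detected) at 1648 and 6186 CPM. Cells with an Ly6c2 UMI made up 46.6% and 88.1% of the gates, again without thinning, at median depths of 11293 and 14317 UMIs. Members took 15.8% and 13.4% of the UMIs of cells with Ly6c2 and 16.6% and 15.1% of those without. The log2 ratio was −0.26 in all macrophages, −0.23 with Ly6c2 and −0.14 without. Rpl29 was as far apart in every such part of both gates: it was at 1094 and 108 CPM in macrophages with Ly6c2, 1194 and 143 CPM in those without, 1420 and 169 CPM in CD8 T cells with Gzmb, and 1556 and 174 CPM in those without.

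**Figure D3:**
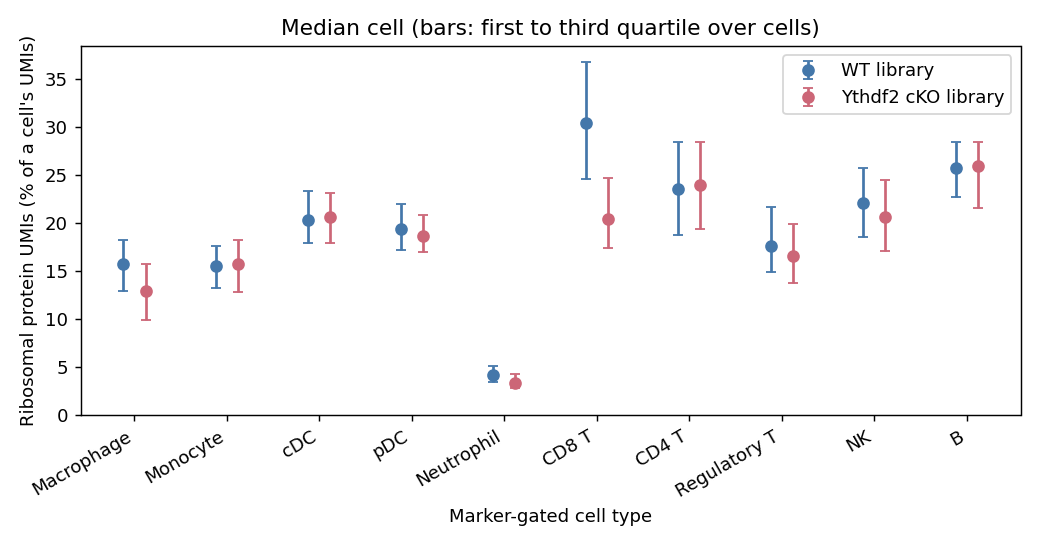
Share of a cell's UMIs on ribosomal protein genes (percent) by marker gate, with points at the median cell and bars from the first to the third quartile over cells. Only CD8 T cells (30.4% and 20.4%) and macrophages (15.7% and 12.9%) have medians more than 2 percentage points apart.

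RNA of other cell types also differed between the libraries. The 6 macrophage markers summed to 447 to 716 CPM over the T and NK cell gates of the WT-labelled library and 69.8 to 103 CPM over those of the cKO-labelled library. In B cells they summed to 1157 and 816 CPM, of which Apoe alone made 817 and 729 CPM. The 4 pigment cell markers (Pmel, Dct, Mlana and Tyrp1) summed to 39.2 to 111 CPM over the 9 gates of the WT-labelled library and 2.45 to 8.27 CPM over those of the cKO-labelled library. The defining B cell marker Ms4a1 was at 0 in CD4 T cells of both libraries. The part of such RNA in the members' ratios was not tested. Summed over a gate, fewer molecules per cell and fewer cells with the molecule cannot be told apart, except where the thinned shares above bear on it.

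Rpl27 and Rpl13a lay above the members' median in all 9 gates and, after Rpl29, furthest from it as a median over gates (0.40 and 0.42). In single gates other members were as high or higher, such as Rps27 in macrophages (0.46 above the median, level with Rpl27 and above the 0.18 of Rpl13a) and Rps27l in CD4 T cells (0.54). A distance from the members' median does not depend on the denominator. Rpl27 encodes a large subunit protein and lies at chr11:101442298-101445529 on the plus strand. It was at 408 CPM [398, 419] and 477 CPM [462, 493] in macrophages, 771 CPM [744, 798] and 926 CPM [911, 942] in CD8 T cells, and 422 CPM [410, 435] and 524 CPM [515, 533] in monocytes. Over the 9 gates its ratio ran from 1.17 to 1.37, with 9 of 9 intervals above 1, and its log2 ratio lay 0.29 to 0.66 above the members' median.

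Rpl13a encodes a large subunit protein that is also known to silence translation of inflammatory messages once released from the ribosome. It lies at chr7:45125558-45128761 on the minus strand. It was at 412 CPM [393, 432] and 568 CPM [556, 580] in CD8 T cells, 301 CPM [286, 317] and 408 CPM [395, 421] in NK cells, and 192 CPM [185, 199] and 185 CPM [175, 195] in macrophages. The intervals of the libraries were apart in CD8 T and NK cells and overlapped in macrophages. Its ratio ran from 0.964 in macrophages to 1.39, with 8 of 9 intervals above 1, and its log2 ratio lay 0.18 to 0.86 above the members' median. Neither gene reached 1.5-fold in any gate.

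The promoters of these 2 genes are shown because, after Rpl29, they lay furthest from the members' median over the gates. They are RefSeq sequences on GRCm38.p6, from 250 bases before to 50 after the annotated start, at chr11:101441995-101442294 (plus strand) and chr7:45128696-45128995 (minus strand). Capitals mark CCGGAA, the core that ETS factors bind, and CTTT, part of a pyrimidine tract at the start:
Rpl27: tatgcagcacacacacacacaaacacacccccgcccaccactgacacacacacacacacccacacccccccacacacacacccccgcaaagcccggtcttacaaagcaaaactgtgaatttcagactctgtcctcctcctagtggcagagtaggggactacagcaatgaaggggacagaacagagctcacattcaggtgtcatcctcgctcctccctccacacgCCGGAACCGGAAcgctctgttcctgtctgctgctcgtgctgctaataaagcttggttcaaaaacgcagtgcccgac
Rpl13a: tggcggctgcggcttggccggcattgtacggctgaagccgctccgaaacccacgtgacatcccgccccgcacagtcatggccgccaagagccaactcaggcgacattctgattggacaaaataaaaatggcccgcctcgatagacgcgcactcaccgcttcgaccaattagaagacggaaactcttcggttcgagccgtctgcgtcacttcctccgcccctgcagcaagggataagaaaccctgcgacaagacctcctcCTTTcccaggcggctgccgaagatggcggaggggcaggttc

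The table of RefSeq promoters held 59 of the 79 members, and Rpl29 was not matched. CCGGAA, searched on both strands of the 300 bases, occurred in 30 of the 59 (50.8%), and in 15.2% of all 27025 promoters. CTTT was searched in the 35 bases around the start. On the strand of the gene it occurred in 20 of the 59 members (33.9%) and in 13.5% of all promoters, and on the opposite strand in 6.78% and 13.2%. The promoter of Rpl27 holds 2 copies of CCGGAA side by side, 26 and 20 bases before the RefSeq start, and that of Rpl13a none. The GENCODE start of Rpl27 given above lies 53 bases downstream of the RefSeq start, outside this window, and that of Rpl13a 16 bases upstream of its RefSeq start. The pair therefore share neither motif in this window.

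Other members kept a side of the median in all gates by smaller amounts. Of 77 members with at least 100 UMIs in each gate, 7 lay above the members' median in all 9 gates, and besides Rpl27 and Rpl13a these were Rpl10, Rpl17, Rplp0, Rps7 and Rps23. Rplp0, the protein that anchors the stalk where elongation factors bind, was 0.08 to 0.26 above it. It was at 2356 and 2849 CPM in monocytes and 4305 and 3886 CPM in CD8 T cells, higher in the one and lower in the other before the members' median is subtracted. Another 7 lay below the median in all 9 gates, among them Rpl29, Rpl13, Rpl23a, Rps15, Rps28 and Rps29. Rps29 came next after Rpl29, at −0.28 from the median in CD8 T cells. With Rpl29, Rpl13a and Rpl27 set aside, the median absolute distance of a member from its gate's median, taken over gates, was typically 0.06.

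Rps27l, a paralogue of Rps27 that the p53 protein is known to induce, had the widest range of ratios between gates among the 77 members that passed 10 CPM. It lies at chr9:66946086-66949516 on the plus strand. In macrophages it was at 582 CPM [569.9, 595] and 373 CPM [359, 387], 1.56-fold lower [1.497, 1.63]. Monocytes held 354 CPM [342, 365] and 273 CPM [267, 280]. In CD4 T cells it was higher in the cKO-labelled library, at 163 CPM [139, 191] and 233 CPM [205, 264], a ratio of 1.43 [1.16, 1.76]. CD8 T cells held 234.5 and 244.7 CPM with overlapping intervals. Over the gates its log2 ratio ran from −0.64 to 0.51, below 0 in 7 of 9, where leaving members and mitochondrial genes out of the denominator made it 8 of 9. Its parental gene Rps27 differed from it in macrophages, at 1348 and 1581 CPM.

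Members also differed between lymphoid and myeloid gates in ways both libraries shared. The share of each gate's member UMIs that a member took was compared between the 5 lymphoid gates and the macrophage, monocyte and conventional dendritic gates. Of 77 members with at least 1000 UMIs, 68 had the same sign in both libraries. For 22 the gates of the 2 lineages did not overlap in either library, 10 higher in lymphoid and 12 in myeloid gates. The same counts were not taken over all genes, so whether they are particular to the members was not tested. Rps27l took a median of 0.297% of member UMIs in myeloid and 0.0772% in lymphoid gates of the WT-labelled library, and 0.243% and 0.0970% in the cKO-labelled library. Rpl10, the X-linked gene of a protein near the catalytic centre, took 1.25% and 0.723% in the WT-labelled library, and 1.36% and 0.807% in the cKO-labelled library. These 2 were the members with the widest gap on the myeloid side, followed by Rpl7a, Rpl28 and Rps25.

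On the lymphoid side the widest gaps were those of Rpl12, Rps27, Rps15a, Rplp1 and Rps24. Rps27, a small subunit protein with a zinc-binding site, took 1.54% in lymphoid and 1.12% in myeloid gates of the WT-labelled library, and 1.61% and 1.16% in the cKO-labelled library. Rps15a took 1.82% and 1.34% in the one and 1.85% and 1.398% in the other. Rpl12 took 1.72% and 1.18%, and 1.59% and 1.09%, but its gates overlapped in the WT-labelled library, as did those of Rplp1. Rpl29 took 0.517% of member UMIs in lymphoid and 0.602% in myeloid gates of the WT-labelled library. In the cKO-labelled library these were 0.0651% and 0.0763%, with overlapping gates.

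Processed pseudogenes, intronless copies that can share reads with their parent gene, were counted with 1 rule for all members. Of the 79 members, 69 had at least 1 copy of no less than 95% identity, with a median of 4. Rpl29 with 24 copies came after Rpl21 with 56 and Rpl7a with 32 and before Rpl17 with 22 and Rps12 with 21. The median distance from the members' median over the 9 gates was −2.98 for Rpl29, but 0.03 for Rpl21, 0.10 for Rpl7a, 0.08 for Rpl17 and −0.08 for Rps12. Rpl27 had 7 copies and Rpl13a 2. Of the 24 copies of Rpl29, 1 was a counted gene of the files, Gm17669, with 47 UMIs in the WT-labelled library and 110 in the cKO-labelled library, beside 149656 and 18177 UMIs of Rpl29. How reads that match several copies were treated is not given in the sources used here, so counts of members with copies are uncertain, and the part of this in the ratio of Rpl29 was not tested.

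**Figure D4:**
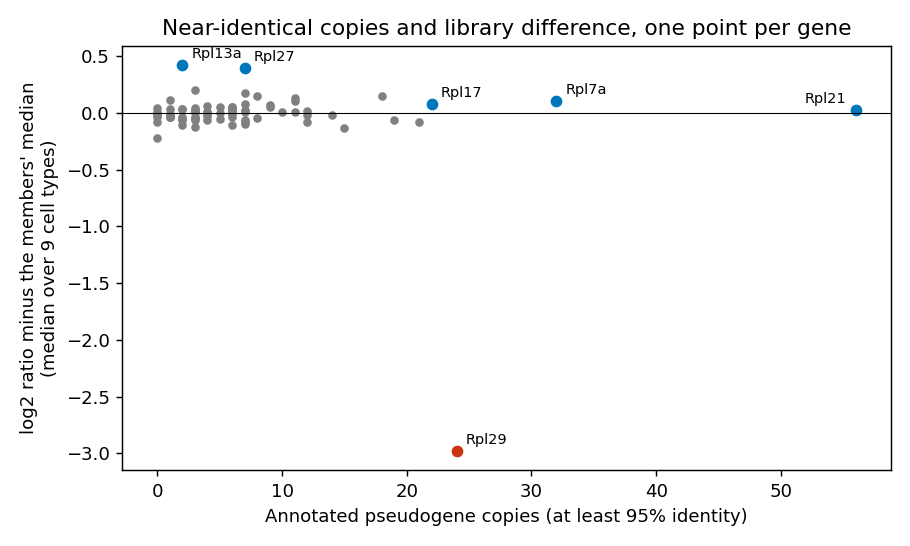
Number of annotated pseudogene copies of each member (x axis, at least 95% identity) against its median distance from the members' median log2 ratio over 9 gates (y axis), 1 point per gene with 6 labelled. Rpl21 with 56 copies and Rpl7a with 32 lie near 0, and Rpl29 with 24 lies at −2.98.

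The genes around Rpl29 on chromosome 9 did not share its difference as a block. The annotation holds 49 other genes of the files with a start within 1 Mb, and 14 to 19 of them passed 10 CPM in each gate. Summed over the 9 gates, 19 of their 143 ratios were at least 1.5-fold lower and 12 at least 1.5-fold higher, together 21.7%. Per gate, the neighbours' called share was above that of all genes except in plasmacytoid dendritic and B cells. In NK cells 3 of 16 were lower and 0 higher, beside 4.4% of all genes called, and in monocytes 2 of 14 lower and 0 higher, beside 5.73%. Plasmacytoid dendritic cells had 1 lower and 1 higher of 15, beside 14.2%, and B cells 2 lower and 1 higher of 14, beside 23.4%. The neighbours' median log2 ratio per gate ran from −0.21 in monocytes to 0.27 in CD8 T cells.

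Dusp7, which encodes a phosphatase of MAP kinases and starts at −60.8 kb from the start of Rpl29, was the neighbour lower in most gates. It was at 49.1 and 12.5 CPM in macrophages (690 and 97 UMIs), 29.7 and 9.53 CPM in monocytes (318 and 232 UMIs) and 23.1 and 8.10 CPM in NK cells (111 and 78 UMIs). In the 8 gates where it passed, its log2 ratio was below 0 in 8, from −1.89 to −0.39, with a median of −1.41. In monocytes, conventional dendritic, CD8 T and NK cells Dusp7 reached 10 CPM only in the WT-labelled library, and such a pass favours a ratio below 0. Without that filter the log2 ratio of Dusp7 was above 0 in 0 of 9 gates. Parp3, which encodes a DNA repair enzyme and starts 47.5 kb after Rpl29, was below 0 in 8 of 9 gates with a median of −0.46. Its direction is less firm, since it was above 0 in 1 gate, and in 2 with median-of-ratios size factors. Between Dusp7 and Parp3, Rrp9, a ribosomal RNA processing factor that starts 46.5 kb after Rpl29, had a median of −0.15 (−0.46 to 0.53). On the far side of Dusp7, Ppm1m, a phosphatase gene at −230 kb, was above 0 in 9 of 9 gates with a median of 0.33, and Wdr82 in 8 of 9 with 0.34. Mapkapk3, 860 kb after Rpl29, was below 0 in 7 of 8 gates with a median of −0.48. None of these medians came near the −3.06 of Rpl29.

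**Figure D5:**
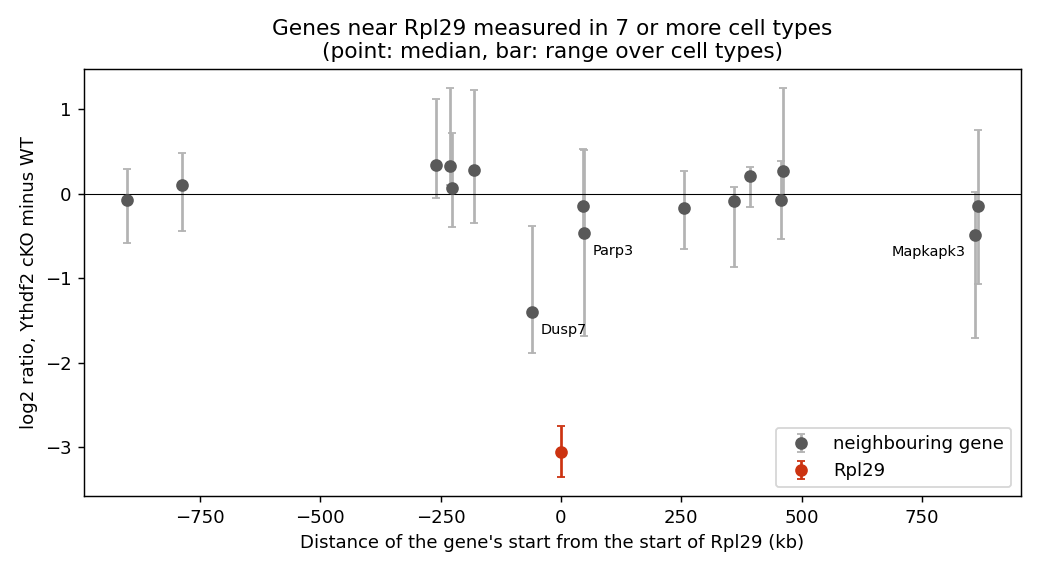
Log2 ratio (cKO-labelled library minus WT-labelled library) of genes measured in 7 or more gates against the distance of their start from that of Rpl29 in kb, with points at the median and bars over the range of gates. Rpl29 (red) spans −3.35 to −2.75, Dusp7 has a median of −1.41, and the other neighbours have medians between −0.48 and 0.34.

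Other genes of translation were described from lists, beside the percentages of all genes called given above. Translation factors had 0 of 35 members called in 8 of the 9 gates, and 1 of 35 (Eif3l, higher) in B cells. Their medians ran from −0.20 in macrophages to 0.04 in conventional dendritic cells. Genes with a pyrimidine tract outside the symbol pattern formed a list that shares genes with the others. Examples are Eef1b2 and Eif4b among the translation factors, Rack1 among the ribosomal genes below and Npm1 in ribosome biogenesis. The list had 2 of 15 lower in macrophages and 0 of 15 called in the other 8 gates. The 2 were Npm1, a nucleolar chaperone, at 835 and 480 CPM, and Nap1l1, a histone chaperone, at 367 and 217 CPM. In CD8 T cells, where ribosomal protein genes had a median of −0.40, the pyrimidine tract genes had −0.10 and the translation factors −0.05, and the factor furthest down was Eef1b2 at 1835 and 1339 CPM.

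Ribosomal genes that the symbol pattern misses had a median of −0.11 in CD8 T cells and −0.06 in macrophages, beside −0.40 and −0.23 for the members. Of these 10 genes, 1 was called in macrophages, Rsl1d1 at 103 and 64.1 CPM, and 0 in the other gates. Rps3a1, a small subunit protein and the lowest of them in CD8 T cells, was at 4878 and 3738 CPM in CD8 T cells (−0.38) and at 2262 and 1969 CPM in macrophages (−0.20).

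Ribosome biogenesis genes, which make and process ribosomal RNA, had 6 of 45 lower and 0 higher in macrophages with a median of −0.30. Median-of-ratios size factors left 2 lower with a median of −0.16, and a pseudocount of 10 CPM left 3. Among the 6, Nop56, a core protein of ribosomal RNA methylation, was at 97.2 and 60.1 CPM. In monocytes 0 of 44 were called, although the median was −0.32, and with median-of-ratios size factors it was −0.19. In B cells 8 of 42 were lower and 1 higher, in regulatory T cells 5 of 45 higher, and in plasmacytoid dendritic cells 5 of 43 higher and 2 lower. With both directions together, these shares were near those of all genes called there (23.4%, 11.8% and 14.2%). By direction, all genes had 1055 lower and 740 higher of 7655 in B cells and 509 lower and 458 higher of 8225 in regulatory T cells. In plasmacytoid dendritic cells they had 659 lower and 455 higher of 7868. A pseudocount of 10 CPM left 1 biogenesis gene lower in B cells, 1 higher in regulatory T cells, and 1 higher and 1 lower in plasmacytoid dendritic cells. Mitochondrial ribosomal proteins, which build the separate ribosome of mitochondria, had 23 of 77 lower and 0 higher in macrophages. Of all 7773 genes tested there, 1373 were lower and 918 higher. The median of the mitochondrial list was −0.45, and size factors by median of ratios gave 12 lower with a median of −0.32. In monocytes and NK cells 0 of 74 were called. Genes of nascent chain binding and secretory targeting had 1 of 15 lower in macrophages (Srp68), 1 of 15 higher in plasmacytoid dendritic cells, 2 of 15 higher in B cells and 0 called in the other 6 gates.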

How the data were processed

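The deposited values are whole UMI counts for each gene in each barcode, which the authors made against mm10. Tools were Cell Ranger 5.0.1 and Seurat 4.0.4 per the submitters' processing notes, and cellranger 5.0.0 per the file headers. Counting options and the annotation were not given in the sources used here. Coordinates and coding sequences came from GENCODE vM21, which held 30934 of the 31053 genes.

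Cells with under 200 genes (174 and 274 barcodes) or with more than 10% of UMIs on mitochondrial genes (2051 and 1259) were dropped. Gates used marker UMIs per cell, without clustering. T cells needed at least 3 UMIs over 2 or more of Cd3d, Cd3e, Cd3g and Trac, with Cd8a or Cd8b1, Cd4, or Foxp3 for the subsets. NK and B cells needed 2 markers. Macrophages needed 2 UMIs of Csf1r and Fcgr1 and 5 of C1q genes, and monocytes had at most 3 of C1q. Dendritic cells needed 2 of their markers. Gate names rest on RNA, since no protein was measured. Doublets were removed only where markers of 2 lineages met, and Scrublet scores (scanpy 1.11.5) served as an alternative, at 0.8% per 1000 cells, since its automatic threshold called 5 and 1 cells.

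UMIs were summed per gate and library and scaled to CPM, and log2 ratios used a pseudocount of 1 CPM (Python 3.11.15, numpy 2.4.6, scipy 1.17.1). For shares of cells, each gate was thinned to 1 depth, the smaller of the libraries' percentile 20 values. Depth sets the precision: Rpl29 rested on 97 to 16110 UMIs per gate and library. On simulated counts, 193 of 200 changed genes in macrophages (7444 genes) and 190 of 200 in CD8 T cells (7528 genes) were recovered within 0.5 log2, and 95.4% and 95.8% of intervals held the truth. These counts carried Poisson error only, so such coverage follows from how they were drawn. It checks the calculation and does not cover differences between libraries, between cells or in stray RNA. Pseudogene copies were found by blastn of coding sequences against annotated pseudogenes.

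The text names Rpl29, the 3 highest and lowest members per gate, the 5 members furthest from the median over gates, 5 members per lineage side, members on 1 side of the median in every gate, called genes, neighbours and list examples, and some of these are not reported here. The members, lists and rules were chosen with earlier results of these data known. Alternatives covered cell filters, doublets, a stricter gate, equal weight per cell, thinning, the denominator, size factors, the pseudocount and the filter on low values, and the splits of CD8 T cells and macrophages were added after seeing the data.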

Additional observations from a re-analysis of the deposited data

Results flagged for a closer look

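Rps27l differed in opposite directions between gates. Its log2 ratio, cKO-labelled library minus WT-labelled library, was 0.51 in CD4 T cells and −0.64 in macrophages. The single library of each label in the one gate moved up and in the other moved down, by at least 1.4-fold each, and the intervals of both ratios left out 1. The difference between the gates was not tested, since each label has 1 library. It rested on 154 and 249 UMIs in CD4 T cells and on 8179 and 2884 UMIs in macrophages.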

How the results depend on the processing

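The log2 ratio of Rpl29 was below 0 in all 9 gates under each of 10 alternatives, from −3.56 to −2.61. Its median over gates, −3.06, became −2.98 with median-of-ratios size factors and −2.98 with a pseudocount of 10 CPM, and its distance from the members' median became −2.90 with that pseudocount. The difference in thinned shares of cells with an Rpl29 UMI, −54.3 percentage points as the median over gates, was −30.6 without thinning. The log2 ratio of the members' share of UMIs had a median of −0.05 over gates, and was −0.071 with at most 5% mitochondrial UMIs, −0.065 with 1 more marker per gate and −0.065 with thinned cells. In CD8 T cells (−0.41) these 3 gave −0.41, −0.40 and −0.50, removal of high Scrublet scores gave −0.43 and equal weight per cell −0.48. Its splits gave −0.25 with and −0.17 without Gzmb, and −0.28 with and −0.46 without Mki67 or Top2a. In macrophages (−0.26) the same 3 gave −0.27, −0.25 and −0.27, equal weight −0.28, and the splits −0.23 with and −0.14 without Ly6c2 and −0.25 with and −0.22 without Mki67 or Top2a. Near 0 the sign turned: with 1 more marker, equal weight and thinned cells, monocytes went to −0.00062, −0.0066 and −0.0047, and conventional dendritic cells to −0.019, −0.0094 and −0.0044. The members' median log2 ratio over gates, −0.04, turned to 0.0094 as a share of member UMIs and 0.0056 with median-of-ratios size factors. Member calls summed over gates, 17, became 27 with equal weight, 35 with thinned cells, 44 without members and mitochondrial genes in the denominator (30 of them in CD8 T cells) and 11 as a share of member UMIs. Without the filter on low values, neighbours of Rpl29 had 59 lower and 35 higher ratios in place of 19 and 12, because genes with few UMIs entered. For the other changes the cause was not tested. Rpl27 and Rpl13a stayed above the members' median in 9 of 9 gates under 6 alternative choices of cells, and Rplp0 in 8 of 9 with the stricter gate. That gate left 31 and 49 conventional dendritic cells. No paired analysis was possible because each label has 1 library. Depth limits Rpl29 most in B cells of the cKO-labelled library, at 97 UMIs.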
